A study of Mus musculus with 2 samples.

Results

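The basic helix-loop-helix (bHLH) transcription factors described here were 8 of the 21728 protein-coding genes annotated on chromosomes 1 to 19 and X. They were 5 neuronal genes (Neurod1, Neurod2, Neurod6, Neurog2 and Bhlhe22) and 3 E-protein genes (Tcf3, Tcf4 and Tcf12), chosen by name. For each gene, the DNase-seq peaks that overlapped the gene body or the 10 kb on each side were taken, with the footprints inside them. Their windows held 103 of the 72021 peaks of replicate 1 and 28 of the 59150 peaks of replicate 2. Peaks that overlapped between the libraries by at least 1 bp were joined into 1 site, which gave 99 of 83641 sites. DNase-seq maps accessible chromatin as the places where DNase I cuts DNA in nuclei, and a footprint is a short stretch inside such a place that is protected from cutting. Each of 2 males of the F1 hybrid B6CASTF1/J, aged 36 days, gave 1 library of left cerebral cortex, numbered replicate 1 and replicate 2. The labels name no treatment or control, both animals carry the same donor label, and they are numbered as separate males. With 1 group there is no test between groups, so values are given per mouse, with the mean and SD over 2 mice. Both alleles of the hybrid were placed on 1 reference genome, mm10 (GRCm38), and were not told apart.

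A bHLH factor binds DNA as a dimer at the E-box, CANNTG, and the central bases differ between dimers. Neurogenins act early, in progenitors, and switch on NeuroD genes, which carry neuronal differentiation and in the cortex stay active in excitatory neurons. E proteins are expressed in most tissues and are the usual partners of these factors, while Id proteins bind E proteins and keep them off DNA. Bhlhe22, a relative of the Olig factors, is a repressor found in cortical projection neurons.

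The height of a peak was read as cuts scaled to library depth, which puts the depths at 160.1 M cuts in replicate 1 and 145.4 M in replicate 2. Replicate 1 had the higher values at most sites, with a median peak height of 1.18 against 0.963 in replicate 2. All 6 markers of cortical excitatory neurons had a promoter peak in both mice, and those of microglia (3 genes) and endothelium (3 genes) had none. Of 8 inhibitory neuron markers, 5 had one in replicate 1, 1 in replicate 2 and 0 in both. Of 6 cerebellar granule cell markers 3 had one in replicate 1 and 2 in replicate 2. Cbln1 (3.24 in replicate 1 and 1.82 in replicate 2) and Cbln3 (2.84 and 1.40) had one in both mice. Barhl1 had one in replicate 1 alone, and Gabra6, Zic1 and Zic2 had none. Of 4 astrocyte markers 3 had a peak in replicate 1 and 1 in replicate 2, of 4 oligodendrocyte markers 1 in replicate 1 and 2 in replicate 2, and of 3 dentate granule cell markers 3 in replicate 1 and 1 in replicate 2. In bulk tissue, fewer cells of a type and less access per cell cannot be told apart.

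The promoters of 7 of the 8 genes were accessible in both mice, and by mean height the 3 E proteins came before the 5 neuronal genes. In replicate 2 alone Tcf12 (1.31) was below Neurod2 (1.49). Each height is the highest over all annotated starts of the gene. Tcf3 had 11 such starts, Tcf4 58, Tcf12 20 and each neuronal gene 1. What the number of starts adds to the order was not tested. A peak lay no more than 1 kb from an annotated start in all 8 genes in replicate 1, in 7 in replicate 2 and in 7 in both, beside 63.5%, 58.4% and 57.7% of all coding genes. Tcf3 was highest with a mean height and SD of 5.73 ± 0.470 (n = 2, as for all such pairs), then Tcf4 at 4.05 ± 1.45 and Tcf12 at 2.69 ± 1.96. The neuronal genes followed, with Neurod2 at 2.37 ± 1.25, Neurod6 at 1.80 ± 0.905, Neurod1 at 1.71 ± 0.976 and Bhlhe22 at 1.32 ± 0.618. Neurog2 was lowest, 0.912 in replicate 1 and without a listed peak in replicate 2. Tcf4, Tcf12 and Neurod2 did not differ from the next gene in that order by more than their SD, and neither did Neurod6 or Neurod1. Coding genes with a promoter peak had medians of 4.40 in replicate 1 and 2.65 in replicate 2. Only Tcf3 and Tcf4 were above both, Tcf4 by an internal start. The first promoter region of Tcf4, at 4.00 in replicate 1 and 2.65 in replicate 2, was above neither. By mean height Tcf3 stood at percentile 86.0 of all coding genes, Tcf4 at 73.6, Tcf12 at 61.3 and the 5 neuronal genes between 39.0 and 58.1.

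**Figure D1:**
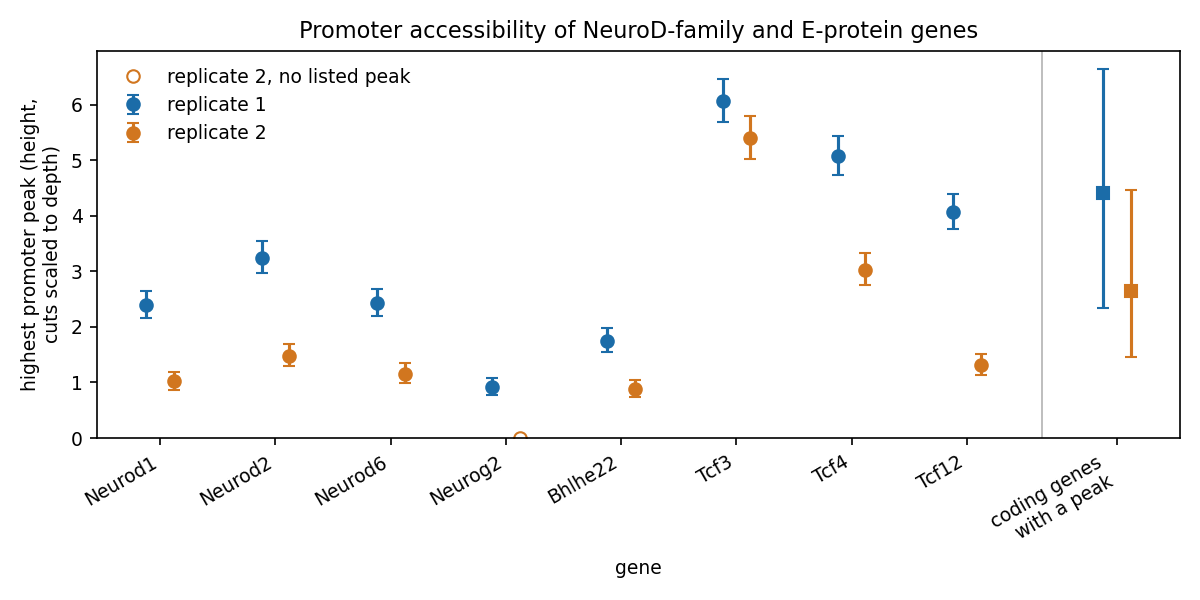
Highest peak within 1 kb of an annotated start of each gene (height, cuts scaled to depth) in each mouse, with exact Poisson 95% intervals that cover counting error only; squares and bars at the right are the median and the middle 50% of all coding genes with a promoter peak. Tcf3 and Tcf4 reach 6.06 and 5.08 in replicate 1, the 5 neuronal genes stay at or under 3.25, and Neurog2 has no listed peak in replicate 2.

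Replicate 1 was higher than replicate 2 at all 7 promoters with a peak in both mice, as at 91.1% of such coding genes. The ratio of replicate 1 to replicate 2 was 3.12 at Tcf12, 2.36 at Neurod1, 2.19 at Neurod2, 2.11 at Neurod6, 1.99 at Bhlhe22 (from peaks at different places), 1.68 at Tcf4 and 1.12 at Tcf3. The median over 12530 coding genes with both peaks was 1.65, and the central 90% ran from 0.893 to 3.04. Tcf12 thus lay at percentile 95.7 of these genes and Tcf3 at percentile 15.1. Among promoter sites outside the windows, the median ratio differed with GC content. For sites with a GC content like that of each gene's promoter sites it was 2.11 for Tcf12, 1.65 for Neurod1 and 1.51 for Neurod2. It was 1.14 for Neurod6, 1.98 for Bhlhe22, 1.25 for Tcf4 and 1.41 for Tcf3. Counting intervals of the mice overlapped at Tcf3 alone, 5.69 to 6.46 in replicate 1 and 5.03 to 5.79 in replicate 2.

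Neurod1, a factor of differentiating neurons and of endocrine cells (GRCm38, chr2:79452521-79456751, minus strand), had 1 site in both mice, at its start. Its height was 2.40 in replicate 1 and 1.02 in replicate 2, in a region that also holds the annotated start of Cerkl. Replicate 1 alone had 2 more peaks, 1.02 in the intron 1462 bp after the start and 1.92 in the coding exon 2411 bp after it. The start peak of replicate 2 held 3 footprints, of which 2 overlapped one of replicate 1.

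Neurod2, which is active in most excitatory neurons of the cortex (chr11:98325415-98329648, minus strand), had the most uneven window of the neuronal genes. It held 11 peaks in replicate 1, joined into 10 sites, and 1 peak in replicate 2, where coding genes with a window of like length had a median of 1 in either mouse. The 11 peaks lay above 98.5% of 7835 such genes and the single peak above 42.2%. That shared site spans the start and was 3.25 in replicate 1 and 1.49 in replicate 2. The bases called at a false discovery rate of 0.001 or less differed likewise, with 3811 bp in replicate 1 and 80 bp in replicate 2. The 250 bases before the RefSeq start (GRCm38.p6, chr11:98329646-98329895, minus strand) are shown since the footprint found in both mice lies near their end. Capitals mark the 3 E-boxes, of which the first is CAGATG and the last, nearest the start, is CATATG.
Neurod2 promoter: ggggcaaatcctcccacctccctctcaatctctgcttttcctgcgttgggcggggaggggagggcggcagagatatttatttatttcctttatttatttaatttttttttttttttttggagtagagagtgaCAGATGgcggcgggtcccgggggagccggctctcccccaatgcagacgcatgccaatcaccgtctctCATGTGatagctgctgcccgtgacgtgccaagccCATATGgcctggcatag
The footprint found in both mice ran from 98329662 to 98329668 in replicate 1 and from 98329667 to 98329678 in replicate 2. Both together are in capitals below, with 5 bases on each side (chr11:98329657-98329683, plus strand). Their first base is the last base of the CATATG. The footprint of replicate 2, but not that of replicate 1, holds TGACGTG on the other strand, a form of the cAMP response element bound by CREB and ATF factors.
Neurod2 footprint: catatGGGCTTGGCACGTCACGggcag

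The highest peak near Neurod2 was not at its start. It lay 8952 bp upstream (chr11:98338501-98338700), at 6.54 in replicate 1 with a false discovery rate of 2.39e-42. Replicate 2 had no peak there in the shorter list, but 1.39 in the authors' longer list, with a rate of 0.00201. In RefSeq the site overlaps a coding exon of the predicted gene Gm33099 (98338527 to 98338895), which GENCODE M21 does not list. It is shown as the only site over 4 of the 5 neuronal genes, and capitals mark its E-boxes, CACGTG and CAGGTG (plus strand).
Neurod2 upstream site: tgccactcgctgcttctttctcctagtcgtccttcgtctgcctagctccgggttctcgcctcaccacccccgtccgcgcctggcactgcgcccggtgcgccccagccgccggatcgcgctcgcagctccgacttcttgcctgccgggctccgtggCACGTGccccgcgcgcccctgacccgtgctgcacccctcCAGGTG
Its GC content was 72.0% over the 200 bases shown. The other 8 sites of the window in replicate 1 alone were between 0.906 and 1.79, and none of those 8 had bases at 0.05 or less in replicate 2. Some of them may belong by position to Gm33099, which in RefSeq runs from 98334454 to 98340898 on the plus strand. Its start lies in the site 4914 bp upstream of Neurod2. The sites 4674 and 3817 bp upstream are within 1 kb of that start, and the site 9704 bp upstream is inside Gm33099.

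Neurod6, a NeuroD factor of cortical and hippocampal pyramidal neurons (chr6:55677822-55681263, minus strand), had 1 site in both mice. It lay 93 bp after the start, at 2.44 in replicate 1 and 1.16 in replicate 2. The other 5 sites were in replicate 1 alone, none over 1.71, and the highest lay 4213 bp after the start and past the gene's end. The 250 bases before the RefSeq start (chr6:55681264-55681513, minus strand) held 2 E-boxes, in capitals.
Neurod6 promoter: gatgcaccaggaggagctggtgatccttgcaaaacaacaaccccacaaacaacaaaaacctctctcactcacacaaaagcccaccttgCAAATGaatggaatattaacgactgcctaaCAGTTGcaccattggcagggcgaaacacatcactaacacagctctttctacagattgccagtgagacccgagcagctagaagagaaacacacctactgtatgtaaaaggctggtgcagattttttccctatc
The shared site held 1 footprint in both mice (chr6:55681141-55681157 in replicate 1, 55681141 to 55681155 in replicate 2), in capitals below with 5 bases on each side. It spans TGACGTCA, the full palindromic cAMP response element.
Neurod6 footprint: tctgcTAGTGACGTCACAGGGCagaga
The same 200 bp window around the middle of the site held 4 E-boxes, 2 of them CAGATG, and both footprints of replicate 2 in this site had an E-box in the 30 bp around their middle.

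Neurog2, a proneural factor of cortical progenitors (chr3:127633135-127635631, plus strand), had no site at its start that was listed in both mice. A peak of 0.912 lay 249 bp after the start in replicate 1 alone, and replicate 2 had no bases there at 0.05 or less. Another of 1.10, 7691 bp upstream, was in replicate 1 alone. The site in both mice lay in the coding exon, 1135 bp after the start, at 1.91 in replicate 1 and 0.599 in replicate 2. It held 4 footprints in each mouse, and 2 positions overlapped between them. The 250 bases before the RefSeq start (chr3:127632886-127633135, plus strand) had no E-box and are given for comparison with those of Neurod2 and Neurod6.
Neurog2 promoter: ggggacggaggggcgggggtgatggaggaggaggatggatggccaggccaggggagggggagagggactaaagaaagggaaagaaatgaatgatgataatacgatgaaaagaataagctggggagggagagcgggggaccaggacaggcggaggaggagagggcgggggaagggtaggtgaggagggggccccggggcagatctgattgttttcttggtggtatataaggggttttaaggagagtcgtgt
One of the coding-exon footprints was 26 bp wide in replicate 1 (chr3:127634261-127634286, in capitals, plus strand) and 8 bp in replicate 2. It holds a match to the core of the motif of CTCF, the factor that bounds chromatin loops.
Neurog2 coding footprint: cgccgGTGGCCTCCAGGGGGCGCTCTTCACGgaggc

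Bhlhe22 (chr3:18054174-18057517, plus strand) had promoter peaks in both mice at different places. Replicate 1 had 1.76 at 516 bp and 1.57 at 1316 bp after the start, and replicate 2 had 0.881 at 55 bp after it. Both libraries had bases at a low false discovery rate at the 55 bp site, with minima of 5.3e-08 in replicate 1 and 0.00049 in replicate 2. The single site in both mice lay 4414 bp upstream (chr3:18049661-18049860) and ran the other way from the promoters, at 0.756 in replicate 1 and 1.51 in replicate 2. That gives a ratio of 0.499, the lowest of the 21 member sites in both mice. A footprint of 30 bp in replicate 1 lay inside one of 43 bp in replicate 2, the widest of the 35 footprints of replicate 2 that overlapped one of replicate 1 (chr3:18049746-18049788, in capitals, plus strand), with no E-box.
Bhlhe22 upstream footprint: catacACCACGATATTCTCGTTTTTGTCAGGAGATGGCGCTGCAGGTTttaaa

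**Figure D2:**
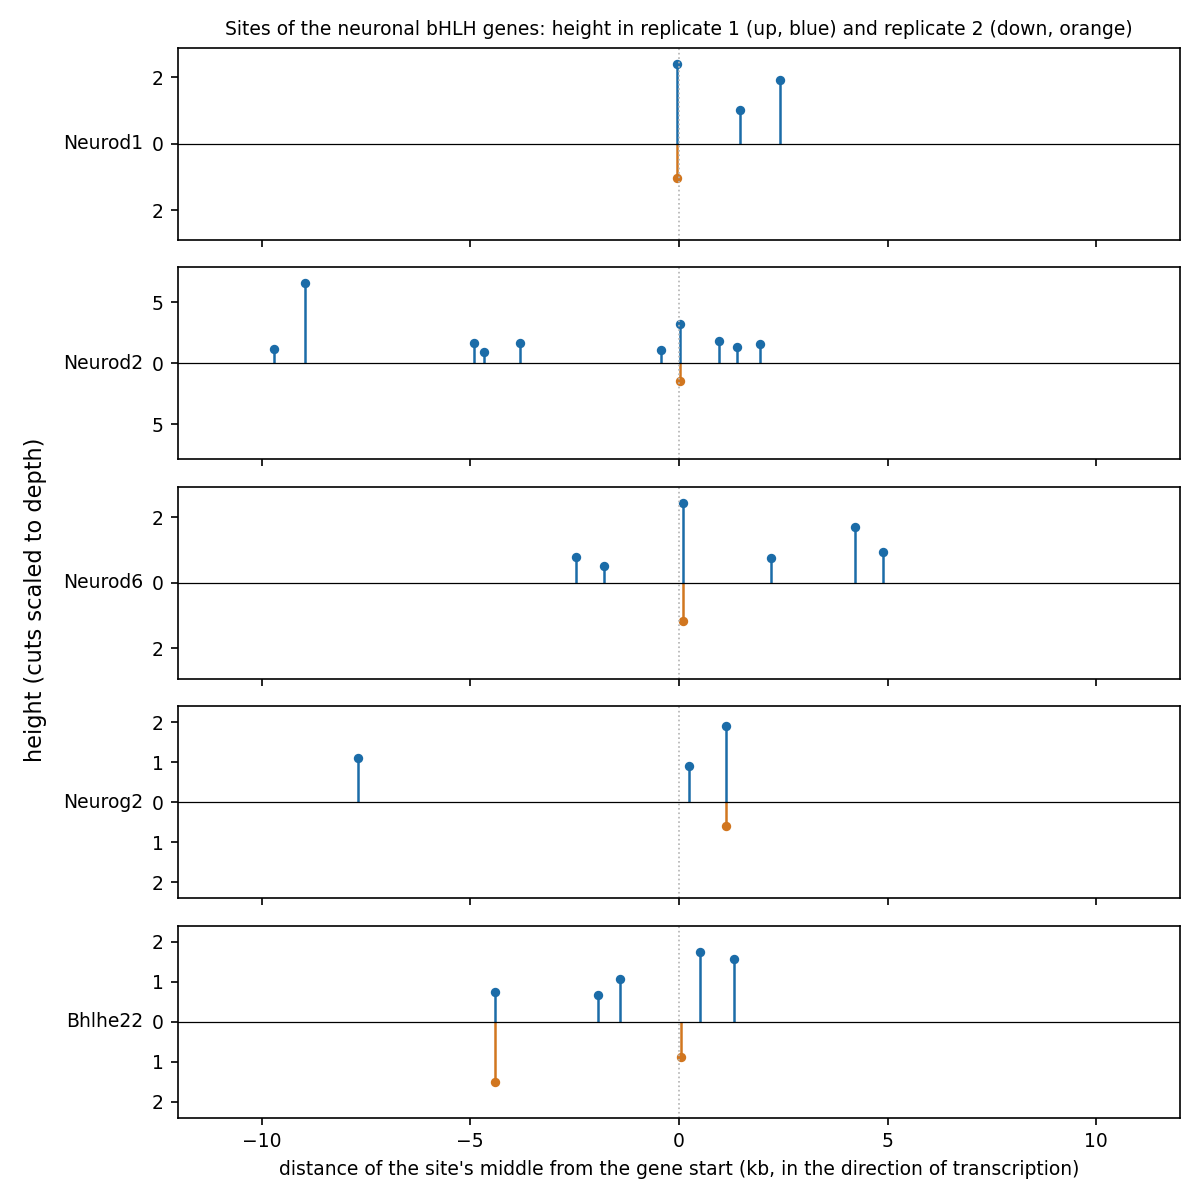
Sites of the 5 neuronal bHLH genes by distance of the site's middle from the gene start (kb), with height in replicate 1 upward and in replicate 2 downward; each panel has its own height scale. Of 28 sites, 5 have a peak in both mice, 22 in replicate 1 alone and 1 in replicate 2 alone, and the site of Bhlhe22 at 4.4 kb upstream is the one that is higher in replicate 2.

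Tcf3, which encodes the E proteins E12 and E47 by splicing (chr10:80409514-80433647, minus strand), had the most even window of the 8. Its highest promoter site lay 433 bp upstream, at 6.06 in replicate 1 and 5.40 in replicate 2. The peak next to it, 113 bp upstream, was 4.68 in replicate 1 and unlisted in replicate 2, where the lowest false discovery rate in its bases was 1.96e-26. An intronic site about 20.3 kb after the start was 1.28 in replicate 1 and 1.71 in replicate 2. The 2 other sites of the window belong by position to neighbours. They lay at the starts of Mbd3 (11.79 in replicate 1 and 10.99 in replicate 2) and Uqcr11 (5.12 in replicate 1 and 3.65 in replicate 2). Without these, 2 of the 3 Tcf3 sites were in both mice.

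Tcf4, the E protein most abundant in the adult brain (chr18:69343356-69689079, plus strand, 58 annotated starts), held 57 of the 99 sites. Its window had 63 peaks in replicate 1 and 9 in replicate 2, and 9 sites were in both. Genes with windows of like length (359 genes) had medians of 9 peaks in replicate 1 and 8 in replicate 2, which puts Tcf4 above 99.7% of them in replicate 1 and above 52.1% in replicate 2. The site with the highest peaks lay 250.1 kb after the first start and on an internal start, at 5.08 in replicate 1 and 3.03 in replicate 2. The first promoter region, 1034 bp after the outermost start, had 4.00 and 2.65, and an intronic site at 310.4 kb had 3.49 and 1.87 (replicate 1, then replicate 2, here and below). Further intronic sites in both mice were at 164.6 kb (2.86 and 1.97), 233.2 kb (2.37 and 1.03), 174.1 kb (2.02 and 1.58), 56.2 kb (1.90 and 0.998) and 227.9 kb (1.77 and 1.36), with 312.3 kb (1.73 and 1.14) near another internal start. All 9 were higher in replicate 1, by 1.28-fold to 2.30-fold.

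Many of the peaks of replicate 1 at Tcf4 were low and close together. Of the 48 sites in replicate 1 alone, 23 had a height under 0.4. Of its 63 peaks, 27 (42.9%) had a height under 0.4, against 0 of 9 in replicate 2, and over the whole libraries 4.79% and 3.11% of peaks were that low. Between 260 and 290 kb there were 20 sites, all in replicate 1 alone, with heights between 0.0937 and 1.12 and a median of 0.353. For 15 of these 20 the false discovery rate in replicate 1 fell below 1e-10, and only 2 of them had any base at 0.05 or less in replicate 2. Between 300 and 320 kb, 9 of 11 sites were in replicate 1 alone, and between 110 and 120 kb all 6 were. Such runs were not particular to Tcf4: 80 coding genes had 10 or more peaks under 0.4 in replicate 1, and 4 of them had more than Tcf4. These stretches were chosen after the sites were seen. What gives low heights with such low rates in 1 library was not tested.

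Tcf12, the E protein HEB (chr9:71842688-72111871, minus strand), was the only one of the 8 with more peaks in replicate 2, 9 against 5 in replicate 1. Its promoter was much the higher in replicate 1. The site over its start was 4.07 in replicate 1 and 1.31 in replicate 2, and the next, 503 bp after the start, was 2.86 and 0.557, the largest ratio (5.13) of the 21 sites in both mice. Of the 5 sites in replicate 2 alone, 4 were intronic, between 90.1 and 214.3 kb after the start, with heights of 0.468 to 0.599. In replicate 1, 3 of these 4 were in the longer list, at 0.325 to 0.456. The intronic site in both mice, 27.5 kb after the start, was 0.612 in replicate 1 and 0.798 in replicate 2. A footprint of replicate 2 there (chr9:72084336-72084351, in capitals, plus strand) overlapped one of replicate 1 (72084345 to 72084351). It is shown since in replicate 2 it holds GTTGCCATG, one arm of the palindrome bound by RFX factors, which the shorter footprint of replicate 1 does not hold.
Tcf12 intron footprint: agagcCTCTGTTGCCATGGCAatctc

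**Figure D3:**
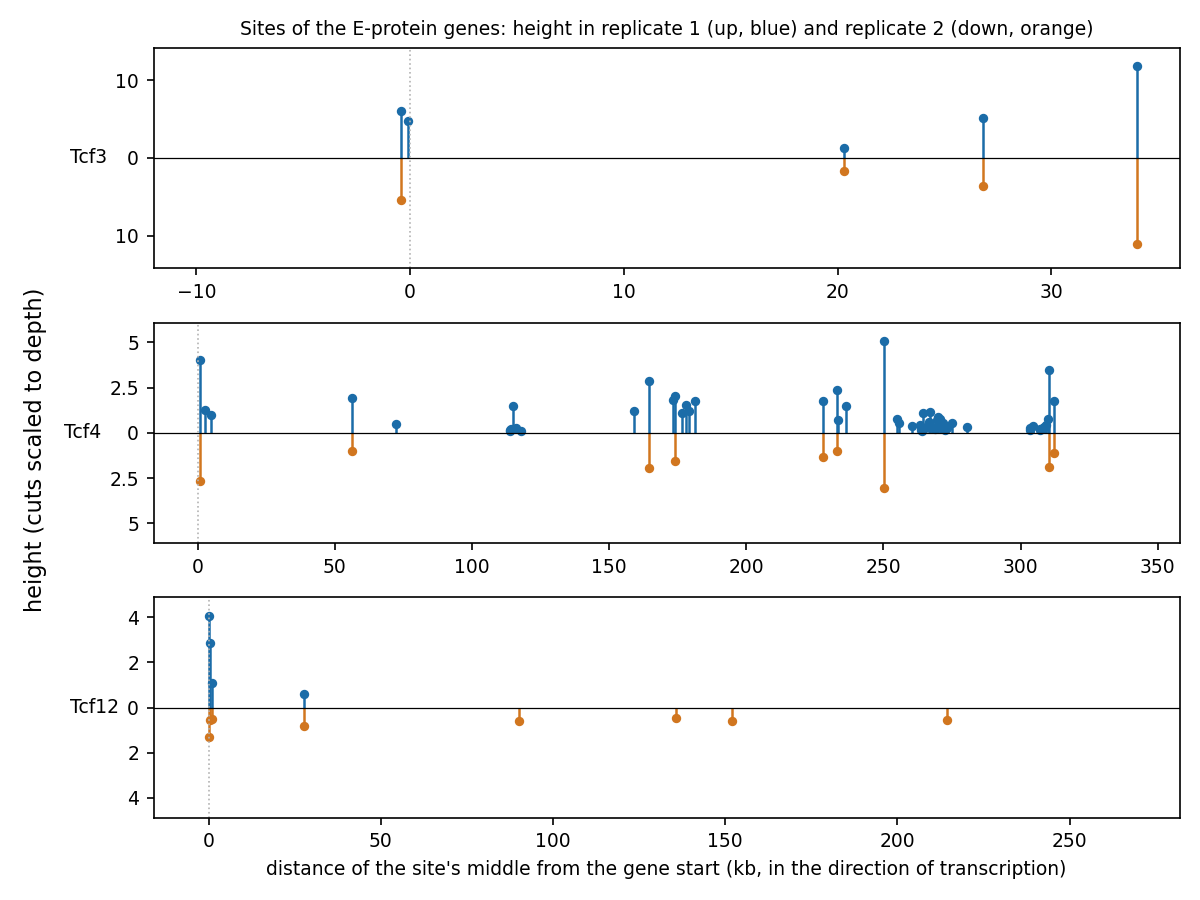
Sites of the 3 E-protein genes by distance of the site's middle from the gene start (kb), with height in replicate 1 upward and in replicate 2 downward; panels differ in both scales. Tcf3 is even between the mice, Tcf4 has 48 sites in replicate 1 alone with a dense run of low ones between 260 and 290 kb, and Tcf12 has 4 intronic sites in replicate 2 alone.

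Fewer member sites than sites in general were in both mice. Of 99 sites, 21 were in both (21.2%, Wilson 95% interval 14.3 to 30.3), 72 in replicate 1 alone (72.7%) and 6 in replicate 2 alone, while over all sites 52.5% were in both and 31.1% in replicate 1 alone. Without Tcf4, 12 of 42 sites (28.6%) were in both, and without sites whose peaks were all under 0.4, 21 of 76 (27.6%). The neuronal genes had 5 of 28 in both and the E proteins 16 of 71. The difference was also there among sites of like height. Of member sites with a height of 1 to 2 in replicate 1, 5 of 32 (15.6%) were also in replicate 2, against 69.5% of all such sites, and without Tcf4 the count was 2 of 17 (11.8%). From 2 to 4, 9 of 9 were, against 92.8%, and at 4 or more, 5 of 7, against 99.3%. The 2 exceptions are the Neurod2 upstream site and the Tcf3 site 113 bp upstream. Away from their starts, 2 of 19 sites of the neuronal genes (10.5%) were in both mice, against 49.1% of sites away from promoters with a like GC content and 48.1% of all sites away from promoters. The 19 include sites within 1 kb of the starts of Gm26755 and Gm3279 and of the RefSeq start of Gm33099. Of the 72 sites in replicate 1 alone, 13 had bases at 0.05 or less in replicate 2, 3 had bases at 0.001 or less and 11 were in its longer list.

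**Figure D4:**
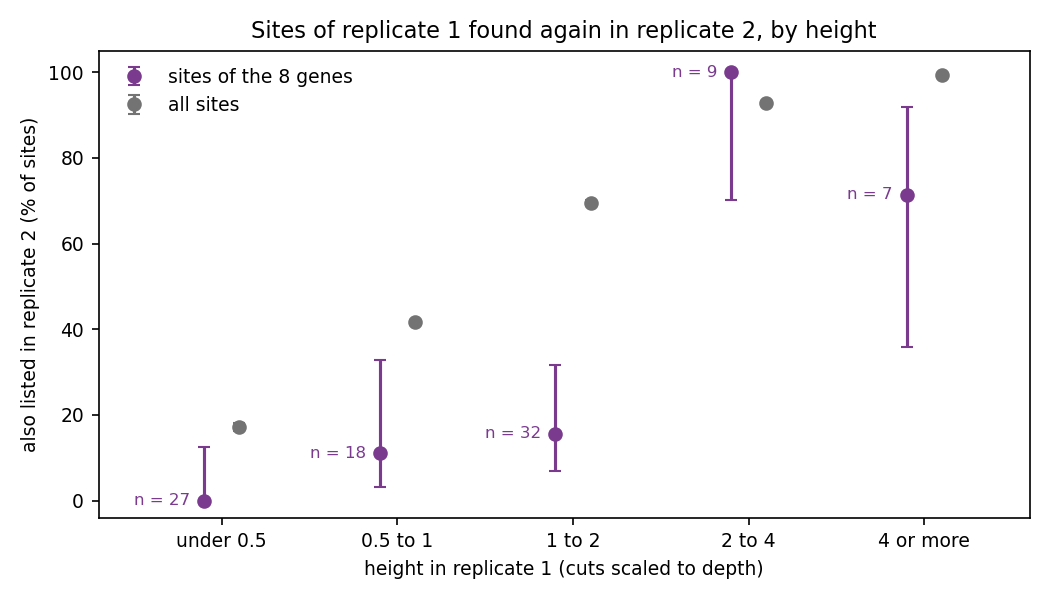
Share of sites of replicate 1 that also had a peak in replicate 2 (%), by height in replicate 1, for the 93 sites of the 8 genes with a peak in replicate 1 and for all such sites, with Wilson 95% intervals that cover counting error only. Under a height of 2 the members lie below all sites in each class, with 15.6% against 69.5% from 1 to 2; from 2 to 4 all 9 member sites recur.

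Where both mice had a peak, the member sites had a median ratio of 1.52, replicate 1 over replicate 2, beside 1.38 over all sites in both. Replicate 1 was the higher at 18 of 21 (85.7%), and at 79.5% of all sites in both mice. The 3 that ran the other way were the upstream site of Bhlhe22 (0.499), the Tcf3 intron (0.747) and the Tcf12 intron (0.767), each away from a start. The 9 promoter sites had a median ratio of 2.11, beside 1.65 over all promoter sites. The 12 sites away from the gene's own start had 1.35, beside 1.24 over all sites away from promoters. These sets are not alike: the 12 include the starts of Mbd3 (1.07) and Uqcr11 (1.40), and the 1.24 leaves out starts of all genes.

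Footprints inside member peaks numbered 264 in replicate 1 and 72 in replicate 2, of which Tcf4 held 126 and 25, Neurod2 36 and 2, and Tcf12 13 and 19. Per kb of peak there were 10.7 in replicate 1 and 14.9 in replicate 2, near the 11.5 and 13.3 over all peaks. Of the 72 footprints of replicate 2, 35 (48.6%) overlapped one of replicate 1, near the 46.0% over all footprints in peaks. In the other direction 35 of 264 (13.3%) did, against 38.0%. Tcf4 gave 15 of the 35, the window of Tcf3 9 and Tcf12 4, and the 5 neuronal genes gave 7. Of the 9 in the Tcf3 window, 7 lay at the starts of Mbd3 and Uqcr11 and 2 at sites of Tcf3 itself. Where the match itself had to overlap the footprint of replicate 2, 2 of the 35 held an E-box. They were in the Tcf3 intron and an intronic site of Tcf4 at 164.6 kb. By this rule 5.56% of all member footprints of replicate 2 held one, against 9.84% of all others.

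Taken over all forms, E-boxes were about as common in the sites of these genes as elsewhere. A CANNTG, on either strand and with overlaps allowed, stood in the middle 200 bp of 65 of 99 sites (65.7%, Wilson 95% interval 55.9 to 74.3), against 68.2% of all other sites. Without Tcf4 the count was 31 of 42 (73.8%, 58.9 to 84.7), and at the neuronal genes it was 22 of 28 (78.6%, 60.5 to 89.8), and both intervals take in 68.2%. Of these 28 neuronal sites, 19 lay away from their own start. The share was 75.8% over all other sites away from promoters and 53.4% over all other promoter sites. CAGATG, the form preferred by NeuroD factors, was in 21 sites (21.2%, against 20.3%), with 9 of 28 (32.1%, 17.9 to 50.7) at the neuronal genes. It was in 25.5% of all other sites away from promoters. The forms of E-protein dimers were CAGGTG in 16.2% (against 15.1%) and CAGCTG in 9.09% (4.86 to 16.4, against 17.4%). Without Tcf4, CAGCTG was in 6 of 42 sites (14.3%, 6.72 to 27.8), an interval that takes in 17.4%. CATATG, bound by Olig-related factors and neurogenins, was in 7 sites (7.07%, 3.47 to 13.9, against 3.82%), among them the start sites of Neurod1, Neurod2 and Bhlhe22. Its share was 1.31% over all other promoter sites and 5.13% over all other sites away from promoters. At the neuronal genes CATATG was in 4 of 28 sites (14.3%, 5.70 to 31.5), an interval above these shares. Without Tcf4 it was in 4 of 42 (9.52%, 3.77 to 22.1). Searched over whole sites, CATATG was in 10 of 99 member sites (10.1%, 5.58 to 17.6), against 3.87% of all other sites. CACGTG, bound by bHLH factors with a leucine zipper, was in 2 sites (2.02%, 0.556 to 7.07, against 5.36%). Among the 250 bases before each of 32851 RefSeq starts, 66.2% held a CANNTG and 3.46% a CATATG.

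**Figure D5:**
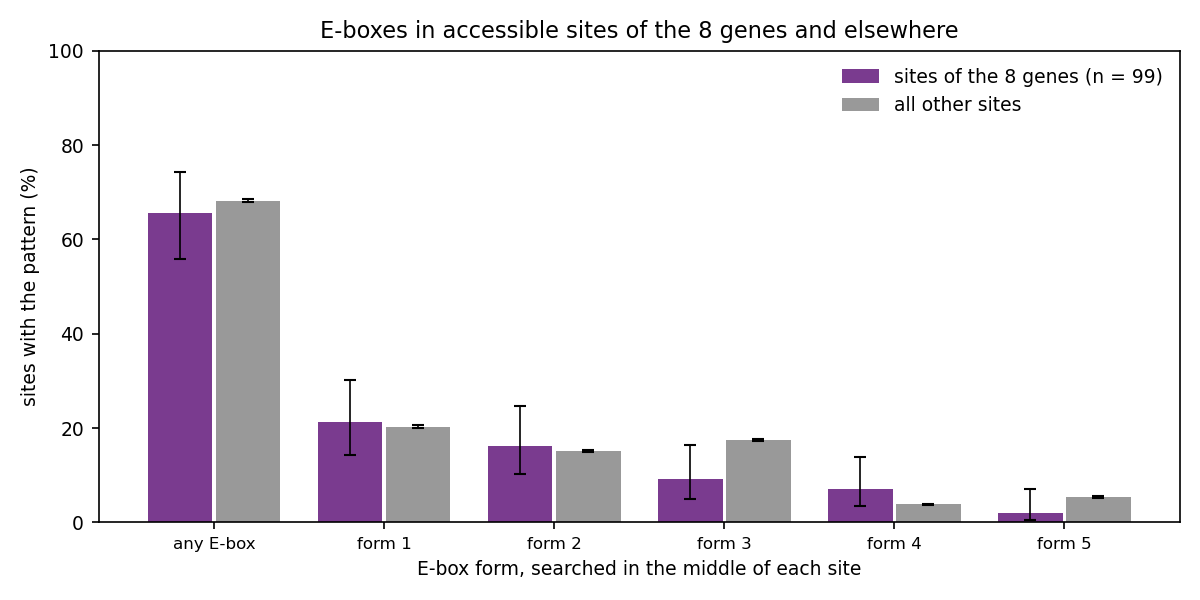
Share of sites with an E-box in the middle 200 bp (%), for the 99 sites of the 8 genes and for all other sites, with Wilson 95% intervals that cover counting error only; form 1 is CAGATG, form 2 is CAGGTG, form 3 is CAGCTG, form 4 is CATATG and form 5 is CACGTG. The interval of the 8 genes takes in the share of all other sites for any E-box and for forms 1, 2, 4 and 5, and lies below it for form 3. Without Tcf4 (not drawn) the interval for form 3 is 6.72 to 27.8 and takes in the 17.4% of all other sites.

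In the 30 bp around footprints the share with an E-box was lower than elsewhere over all 8 genes, but within counting error. In replicate 1 without Tcf4 it was not lower. Within 30 bp around the middle of a footprint, a CANNTG stood in 13.3% of member footprints in replicate 1 and 9.72% in replicate 2, against 15.0% and 15.6% of all others. Without Tcf4 the shares were 16.7% (23 of 138, 11.4 to 23.8) in replicate 1 and 10.6% (5 of 47, 4.63 to 22.6) in replicate 2. Where the match itself had to overlap the footprint, the 8 genes had 5.30% in replicate 1 (3.18 to 8.70). That is below the 8.93% of all others by more than counting error. In replicate 2 the interval by this rule took in the share of all others. The 4 other patterns met in shared footprints were searched after those footprints were seen, on both strands and with overlaps allowed. The core of the CTCF motif was in 5 of 99 member sites (5.05%, against 6.69% of all other sites) and in 2.93% of the RefSeq promoters. TGACGTCA was in 1 site (1.01%, against 0.907%, and 1.55% of promoters). TGACGTG was in 2 sites, at Neurod2 and at the coding exon of Neurod1 (2.02%, against 1.23%, and 1.65% of promoters). GTTGCCATG was in 1 site (1.01%, against 1.09%, and 0.642% of promoters).

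Other genes of the bHLH network differed in how often their promoters were accessible. All 4 Id genes, inhibitors of E proteins, had a peak in both mice, led by Id2 (7.32 ± 1.43), Id4 (4.07 ± 0.870) and Id1 (3.54 ± 0.304). The 8 genes for corepressors and cofactors of bHLH complexes all did too, led by Cbfa2t2 (7.50 ± 3.16), Lmo4 (4.75 ± 1.76) and Ldb1 (3.18 ± 2.15). Of 10 Hes and Hey repressor genes 6 did, with Hey2 at 6.66 ± 2.56, Hey1 at 5.33 ± 2.91 and Hes6 at 3.84 ± 0.0999. The Olig relatives of Bhlhe22 had 2 of 4, Olig1 (1.90 ± 0.0186) and Olig2 (0.869 ± 0.0611).

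The other proneural genes had a listed promoter peak more often in replicate 1 than in replicate 2. Of 13, 7 had one in replicate 1, 3 in replicate 2 and 3 in both. Over all coding genes these shares were 63.5%, 58.4% and 57.7%. Those in both mice were Atoh7 (2.13 ± 1.67), Ascl2 (1.66 ± 1.16) and Neurog1 (0.824 ± 0.425). Atoh8 (1.21), Nhlh1 (0.812) and Atoh1 (0.762) were listed in replicate 1 but not in replicate 2. bHLH genes of other tissues, such as those of muscle and blood, had a peak in 7 of 20 in replicate 1 and 3 of 20 in replicate 2. The 3 in both were Mesp2 (1.71 ± 1.05), Msc (1.19 ± 0.900) and Twist2 (0.864 ± 0.473), and Tal1 (0.993), Scx (0.956), Twist1 (0.856) and Mesp1 (0.781) had one in replicate 1 alone.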

How the data were processed

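DNase-seq libraries of 2 mice, 1 group, were used. Per the deposited file lists, the authors made all files of a library from its own alignments on mm10, without pooling. For the aligner and the peak caller, a name and version were not given in the sources used here. Each peak has a signal, its height, in the deposited lists, with no stated normalization. Heights were whole multiples of 1 step per library, so they were read as cuts scaled to depth, and the depth was inferred from the step. The deposited false discovery rate lists give a q-value (adjusted p-value) per run of bases, listed up to 0.05. The footprint score was 0.01 in all deposited rows and was not used. Of the 2 peak lists of a library the shorter was the main one.

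Genes came from GENCODE M21, and sequences from GRCm38.p6 and RefSeq promoters. Promoter sequences were taken for 6 of the 8 genes. The RefSeq promoters had no entry for Bhlhe22, and those of Tcf4 were left out by choice. Intervals are exact Poisson for heights and Wilson for shares, and they cover counting error only. The members, gene lists and named sites were chosen with earlier results of these data known. Named by rule were all 8 members, the 3 genes of each list with the highest mean promoter height and those with a peak in 1 mouse alone, and per member the highest promoter site, the 3 highest shared sites away from promoters and the shared sites with extreme ratios. One gene that the rule takes is not reported here. Further sites of the members, the stretches of Tcf4 and the patterns other than E-boxes were picked with their values in view. Other settings tried were the longer list, the higher 50% of peaks, other windows, overlaps and footprint rules, leaving out each mouse, and, chosen after the data were seen, leaving out Tcf4, low peaks or neighbours' starts. The procedures were tested on simulated data. Python 3.11.15, NumPy 2.4.6, pandas 2.3.3, SciPy 1.17.1, pysam 0.24.0 and matplotlib 3.10.9 were used.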

Additional observations from a re-analysis of the deposited data

Results flagged for a closer look

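Footprints also lay in the gene windows outside every listed peak, which no comparison used. There were 114 in replicate 1 and 65 in replicate 2, of 388 and 140 footprints in the windows. Of the footprints in the windows, 68.0% in replicate 1 and 51.4% in replicate 2 were inside a peak, and over the whole libraries 63.9% and 66.4% were. What these footprints stand for was not tested.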

How the results depend on the processing

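The 7 genes with a promoter peak in both mice were 6 with the higher 50% of peaks and 8 with the longer list or within 2500 bp, and 7 and 8 with 1 mouse alone. The 99 sites became 158 with the longer list, 39 with the higher 50% of peaks and 42 without Tcf4, and 27 to 93 with 1 mouse left out. The share in both mice was 43.6% with the higher 50% of peaks (all sites 61.0%) and 27.2% with the longer list (all sites 48.2%). The median over the genes of peaks per window, 4.5 as reported, was 2.25 with the higher 50% of peaks or the gene body alone, 9.25 with 50 kb on each side, and 1.5 to 5.5 with 1 mouse left out. The median promoter height, 2.08, was 1.23 to 2.84 with 1 mouse left out. Sites with an E-box were 55.6% in 150 bp and 79.8% in 300 bp, beside 59.3% and 79.6% of all other sites. Footprints with an E-box fell to 5.43% on average where the match itself had to overlap the footprint, against 11.5% as reported. By that rule members had 5.30% in replicate 1 (3.18 to 8.70) and 5.56% in replicate 2 (2.18 to 13.4). All other footprints had 8.93% in replicate 1, above the members' interval, and 9.84% in replicate 2, inside it. The ratio over shared sites stayed above 1 in each alternative, 1.35 to 2.11. The causes were not tested. No paired analysis was possible because there is 1 group. A site without a listed peak was not shown to be closed: at Tcf3 113 bp upstream and Bhlhe22 55 bp after the start the unlisted mouse had bases at 0.001 or less.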
